A study of Mus musculus with 14 samples.

Results

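The mouse microRNAs (miRNAs) mmu-miR-23a, mmu-miR-27a and mmu-miR-24 of the a cluster, and mmu-miR-23b, mmu-miR-27b and mmu-miR-24 of the b cluster, written below without the species prefix, were examined in the corpus callosum of mice during cuprizone-induced demyelination and remyelination. They were chosen by name, and their 5 mature miRNAs are 5 of the 566 mouse miRNAs with probes on the array. The array names 1 mature miR-24, which both clusters encode, so its signal cannot be divided between them.

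Cuprizone (CPZ) is a copper chelator that kills oligodendrocytes when mixed into the chow, and myelin returns once it is withdrawn. RNA of the corpus callosum was labeled with Cy3 and hybridized to 14 Agilent arrays, each with 1 sample: 4 of control mice on normal diet, 4 of mice fed CPZ for 4 weeks (4wd), 4 of mice fed CPZ for 4 weeks and then regular diet for 2 days (2dr), and 2 of mice fed CPZ for 4 weeks and then regular diet for 2 weeks (2wr). The chow held 0.2 to 0.4% CPZ, the mice were male, and the methods give an age of 7 to 8 weeks at the start of CPZ. Neither strain nor genotype of the array mice was given in the sources used here. The methods count samples as mice and give more mice per group than the 2 arrays of 2wr. Each array was taken as 1 mouse. Tissue was cut out whole, so all its cell types contribute, and fewer cells of a type and less of a miRNA per cell cannot be told apart.

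miRNAs guide silencing complexes to messenger RNAs through the seed, a short stretch near the 5′ end that pairs with the target. The miR-23/27/24 clusters are a pair of related loci, each transcribed as a primary transcript from which the hairpins are cut, so members of a cluster can share their transcription while later steps can set them apart. miR-23 is known in oligodendrocytes as a regulator of lamin B1, a nuclear envelope protein whose excess disturbs myelin; miR-27 is known from lipid metabolism and the differentiation of many cell types, and the clusters are also studied in vessels and myeloid cells.

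Mature sequences from RefSeq (GRCm38.p6) were found for 4 of the 5 members. They are shown, 5′ to 3′ with the seed (bases 2 to 8) in capitals, because the comparison of the a and the b cluster rests on how alike their members are.
miR-23a: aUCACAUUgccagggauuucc
miR-27a: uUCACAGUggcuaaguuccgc
miR-27b: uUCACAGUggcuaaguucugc
miR-24: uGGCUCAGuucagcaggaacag
miR-27a and miR-27b have the same seed and differ at 1 of 21 positions, C19U, counted from the 5′ end with the base of miR-27a first. The seed of miR-23a differs from that of miR-27a at a single position, U7G. The letters of the miR-27 seed also stand at bases 1 to 7 of miR-128-3p, a neuronal miRNA, which is offset by 1 base and so has another seed. In the RefSeq table Mir23a, Mir27a and Mir24-2 are neighbours on chromosome 8, and Mir23b, Mir27b and Mir24-1 are neighbours on chromosome 13 within the span of the protein-coding gene Aopep. A probe for miR-27a could pick up miR-27b and the reverse. The sequence of miR-23b was not found, so its likeness to miR-23a is not shown. Cross-hybridization was not tested for either pair.

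Values are log2 of the ratio of the total signal of a miRNA to the 75th percentile of its array, taken over 170 miRNAs that every array detected, and are called normalized signal. Because different probes differ in brightness, a level was compared only between arrays, never between miRNAs. Arrays detected 181 to 287 mouse miRNAs, and their summed signal ranged from 46845 to 174172. The arrays lay on 2 slides of 8 and 6 arrays, both with arrays of all 4 groups, and the members were brighter on slide 1: slide 2 minus slide 1 was -0.45 for miR-23a, -0.41 for miR-23b, -0.39 for miR-24, -0.34 for miR-27a and -0.11 for miR-27b, against a median of -0.0025 over the 225 miRNAs tested. Within-slide values are therefore given beside the differences that stand out.

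All 5 members were detected on all 14 arrays, and none of their spots was saturated. No member passed the test in any comparison (limma with Benjamini-Hochberg adjustment over 225 miRNAs, 2-fold or more with an adjusted p under 0.05). The background was low too, with 0.444% of the tested miRNAs called at 4wd, 0.889% at 2dr, 0.0% at 2wr, 0.0% for 2wr against 4wd and 0.444% across the 4 groups, so a count of 0 among 5 members is near it. At an unadjusted p under 0.05 in limma, 1 member, miR-27b at 4wd, stood among 23 miRNAs at 4wd, and no member among 27 at 2dr, 2 at 2wr or 11 for 2wr against 4wd. The methods' test, an analysis of variance with Tukey's comparison, also called 0 members. The members had a median log2 difference from control of 0.09 (4wd), 0.20 (2dr) and 0.13 (2wr), against 0.03, -0.25 and -0.08 over all miRNAs tested. Both medians moved with the scaling. When the percentile was taken over all mouse miRNAs, members were at 0.052, 0.48 and 0.31, against -0.011, 0.027 and 0.092 over all miRNAs. After normexp background correction the members were at -0.26, 0.16 and 0.11, against 0.80, 0.17 and 0.14. The 3 comparisons with control share the control arrays and are not independent of each other.

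**Figure D1:**
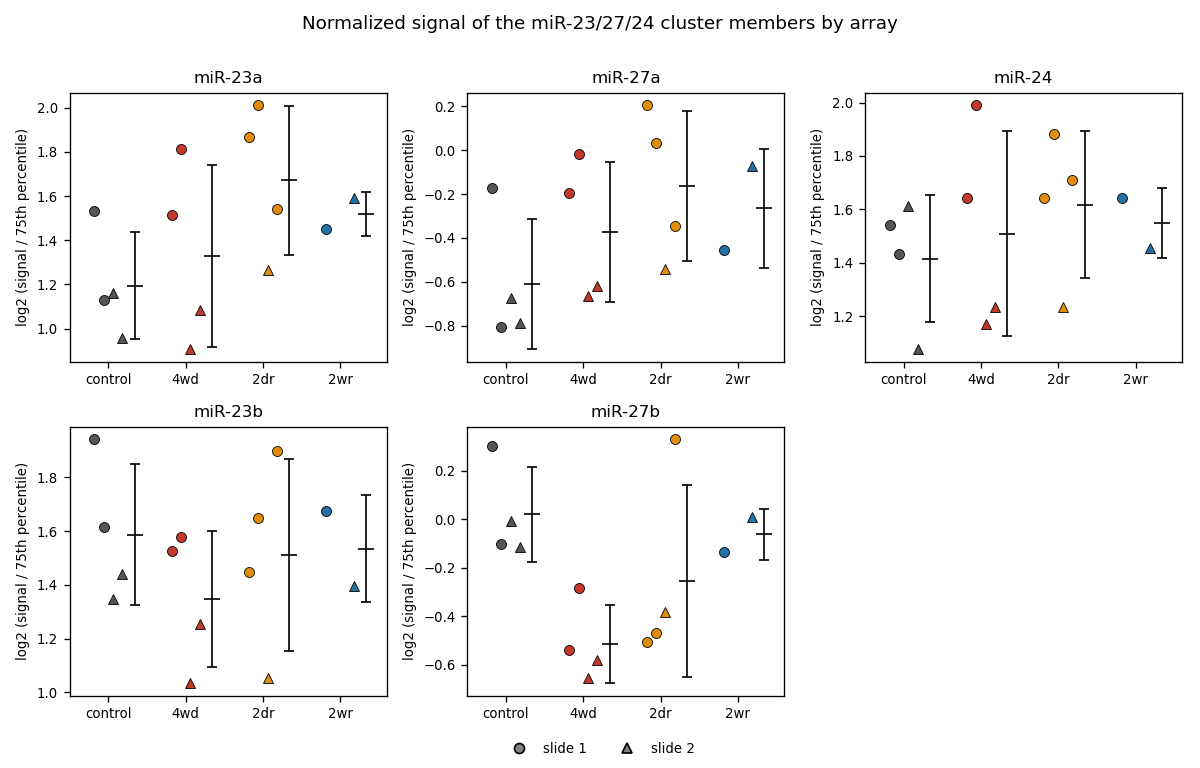
Normalized signal (log2 of signal over the 75th percentile of the array, vertical axes with their own ranges) of the 5 members by group, with circles for slide 1, triangles for slide 2 and bars for mean ± SD. The 4wd arrays of miR-27b lie between -0.66 and -0.28, all below the control arrays, while the groups of the other members overlap.

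In the b cluster, miR-27b (mmu-miR-27b) was the member that differed most at 4wd. Its normalized signal was 0.30, -0.10, -0.01 and -0.11 on control arrays, -0.54, -0.28, -0.66 and -0.58 at 4wd, -0.51, -0.47, -0.38 and 0.33 at 2dr, and -0.14 and 0.01 at 2wr. Every 4wd array lay below every control array, 3 of the 4 arrays at 2dr did so as well, and replicate 4 of 2dr lay above all controls. Control averaged 0.02 ± 0.19, 4wd -0.52 ± 0.16, 2dr -0.26 ± 0.40 (SD, n = 4 each) and 2wr -0.06 ± 0.10 (SD, n = 2). At 4wd the log2 difference from control was -0.54 (95% interval -1.001 to -0.07), a signal 0.690 times that of control, with an adjusted p of 0.402 in limma. The exact two-sided permutation test gave p = 0.0286, the smallest that 4 against 4 arrays allow, unadjusted for the choice of this member. Groups lay apart in this direction for 2.67% of all miRNAs tested, and in the other direction for 6.22%. Within slides the difference was -0.51 on slide 1 and -0.56 on slide 2, with 2 arrays of each group on each, and a slide block in limma took the adjusted p to 0.225. Over the other settings the log2 difference at 4wd ranged from -0.61 to -0.26, the latter after normexp background correction. The 4wd arrays were also dimmer, with a 75th percentile of 217 to 344 against 379 to 849 in control. The part of this in the difference was not tested.

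At the later times miR-27b was nearer to control. Its log2 difference was -0.28 at 2dr (95% interval -0.74 to 0.19, limma adjusted p = 0.521), and -0.47 without replicate 4 of 2dr. At 2wr it was -0.08 (95% interval -0.65 to 0.49, limma adjusted p = 0.996). With the percentile over all mouse miRNAs these differences turned to 0.0057 at 2dr and 0.092 at 2wr. Both 2wr arrays lay above all 4wd arrays, as was the case for 4.89% of all miRNAs tested, with a log2 difference of 0.45 (95% interval -0.12 to 1.02, limma adjusted p = 0.941, exact permutation p = 0.133, the smallest that 2 against 4 arrays allow).

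miR-23b (mmu-miR-23b), its neighbour in the b cluster, differed less. Its normalized signal was 1.94, 1.62, 1.35 and 1.44 on control arrays, 1.53, 1.58, 1.03 and 1.26 at 4wd, 1.45, 1.65, 1.05 and 1.90 at 2dr, and 1.68 and 1.39 at 2wr. The groups overlapped throughout, although 2 of the 4 arrays at 4wd lay below all controls and replicate 4 of 2dr was the highest of its group. Control averaged 1.59 ± 0.26, 4wd 1.35 ± 0.25, 2dr 1.51 ± 0.36 (SD, n = 4 each) and 2wr 1.54 ± 0.20 (SD, n = 2). The log2 difference from control was -0.24 at 4wd (95% interval -0.73 to 0.26, limma adjusted p = 0.802), -0.07 at 2dr and -0.05 at 2wr, both of the last turning, to 0.21 and 0.12 with the percentile over all mouse miRNAs.

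In the a cluster the differences from control were above 0 at all times, except that miR-23a at 4wd was at -0.24 after normexp background correction and at -0.026 without replicate 2 of 4wd. The normalized signal of miR-23a (mmu-miR-23a) was 1.53, 1.13, 1.16 and 0.96 on control arrays, 1.52, 1.81, 0.91 and 1.08 at 4wd, 1.87, 2.01, 1.26 and 1.54 at 2dr, and 1.45 and 1.59 at 2wr. At 4wd the arrays spread from below to above the control range, and at 2dr 3 of the 4 arrays lay above all controls. Control averaged 1.19 ± 0.24, 4wd 1.33 ± 0.41, 2dr 1.67 ± 0.34 (SD, n = 4 each) and 2wr 1.52 ± 0.10 (SD, n = 2). At 2dr the log2 difference was 0.48 (95% interval -0.06 to 1.01, limma adjusted p = 0.422, exact permutation p = 0.0571). As 3 of the 4 arrays at 2dr lay on slide 1, where the members were brighter, the difference was also taken within slides, where it was 0.48 on slide 1 and 0.20 on slide 2, and with a slide block, where it was 0.38 (limma adjusted p = 0.316). It was 0.13 at 4wd (95% interval -0.40 to 0.67, limma adjusted p = 0.954), where it was 0.33 on slide 1 and -0.06 on slide 2, and 0.32 at 2wr (95% interval -0.33 to 0.98, limma adjusted p = 0.996).

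miR-27a (mmu-miR-27a) followed miR-23a. Its normalized signal was -0.17, -0.81, -0.68 and -0.79 on control arrays, -0.19, -0.01, -0.66 and -0.62 at 4wd, 0.21, 0.03, -0.54 and -0.35 at 2dr, and -0.46 and -0.07 at 2wr. The groups overlapped, because control replicate 1 lay among the CPZ arrays, and the other 3 control arrays were the lowest of all 14. Control averaged -0.61 ± 0.30, 4wd -0.37 ± 0.32, 2dr -0.16 ± 0.34 (SD, n = 4 each) and 2wr -0.26 ± 0.27 (SD, n = 2). The log2 difference from control was 0.24 at 4wd (95% interval -0.29 to 0.76, limma adjusted p = 0.806), 0.45 at 2dr (95% interval -0.08 to 0.97, limma adjusted p = 0.422; 0.46 on slide 1, 0.19 on slide 2 and 0.38 with a slide block) and 0.35 at 2wr (95% interval -0.30 to 0.99, limma adjusted p = 0.996).

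miR-24 (mmu-miR-24), made from both clusters, had small differences from control at all times with the scaling used here. Its normalized signal was 1.54, 1.43, 1.61 and 1.08 on control arrays, 1.64, 1.99, 1.17 and 1.23 at 4wd, 1.64, 1.88, 1.23 and 1.71 at 2dr, and 1.64 and 1.45 at 2wr. All groups overlapped. Control averaged 1.41 ± 0.24, 4wd 1.51 ± 0.38, 2dr 1.62 ± 0.28 (SD, n = 4 each) and 2wr 1.55 ± 0.13 (SD, n = 2), so the log2 difference was 0.09 at 4wd (95% interval -0.41 to 0.59), 0.20 at 2dr (95% interval -0.30 to 0.70) and 0.13 at 2wr (95% interval -0.48 to 0.75). These intervals leave room for a change of either sign but lie inside 2-fold, and after normexp background correction the difference at 4wd was -0.35.

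**Figure D2:**
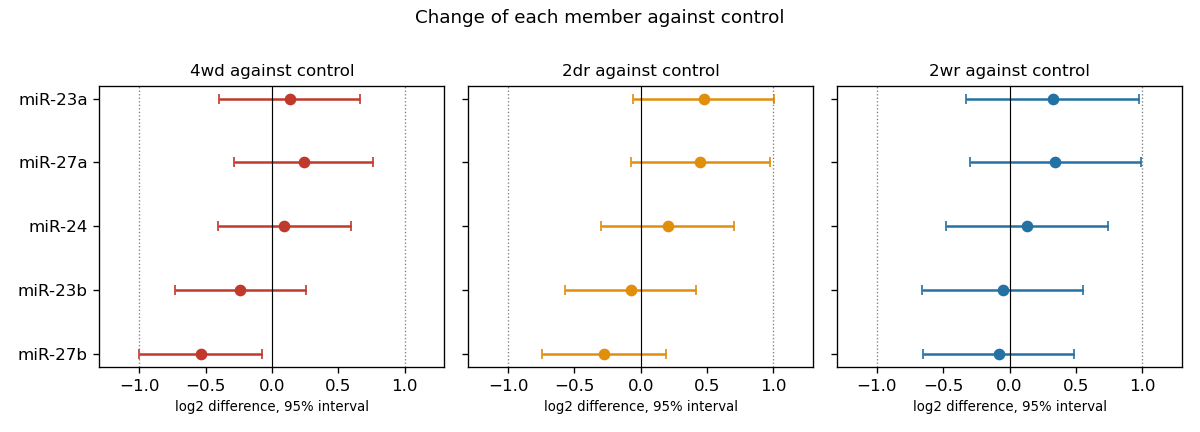
Log2 difference of each member from control at 4wd, 2dr and 2wr (points) with the 95% interval of the limma fit over 14 arrays (bars), with dotted lines at 2-fold. The point of miR-27b at 4wd is at -0.54 with an interval from -1.001 to -0.07, and all other intervals include 0.

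Whether the clusters changed alike was asked by taking the a member minus the b member on each array, which removes the scaling of the array. For miR-27 the difference was -0.48, -0.71, -0.67 and -0.67 on control arrays, 0.35, 0.27, -0.01 and -0.04 at 4wd, 0.71, 0.50, -0.16 and -0.68 at 2dr, and -0.32 and -0.08 at 2wr. All 4wd arrays lay above all control arrays, as did both 2wr arrays and 3 of the 4 arrays at 2dr, while replicate 4 of 2dr lay within the control range. How often such differences lie apart was not computed for other pairs of miRNAs, but single miRNAs did so upward for 6.22% of those tested at 4wd and 3.11% at 2wr. The mean was -0.63 in control and 0.14 at 4wd, a shift of 0.77 on the log2 scale, so that the ratio of a to b was 1.71 times that of control (exact permutation p = 0.0286, 0.114 after Benjamini-Hochberg adjustment over the 8 comparisons of differences). The shift was 0.90 on slide 1 and 0.65 on slide 2, and 0.50 after normexp background correction. It was 0.73 at 2dr (exact permutation p = 0.114), and ranged from 0.52 without replicate 1 of 2dr to 0.98 without replicate 4 of 2dr. At 2wr the shift was 0.43 (exact permutation p = 0.133). Arrays at 4wd were dimmer than control arrays, as given for miR-27b, and the part of this in the shift was not tested.

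For miR-23 the difference was -0.41, -0.49, -0.19 and -0.48 on control arrays, -0.01, 0.23, -0.13 and -0.17 at 4wd, 0.42, 0.36, 0.21 and -0.36 at 2dr, and -0.23 and 0.20 at 2wr. Again all 4wd arrays lay above all control arrays, by a narrow margin, and 3 of the 4 arrays at 2dr did, with replicate 4 within the control range. The shift from control was 0.37 at 4wd, a ratio 1.29 times that of control (exact permutation p = 0.0286, 0.114 adjusted over the 8 comparisons), with 0.56 on slide 1 and 0.18 on slide 2. At 2dr it was 0.55 (exact permutation p = 0.0571), and ranged from 0.46 without replicate 1 of 2dr to 0.72 without replicate 4 of 2dr. At 2wr the shift was 0.38 (exact permutation p = 0.267).

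With 4 arrays a group the smallest exact p, adjusted over the 8 comparisons, could not pass the threshold even where groups lay fully apart. Entered as further rows of the limma fit over all miRNAs, the shift of miR-27 at 4wd had a 95% interval of 0.19 to 1.36 (adjusted p = 0.383, or 0.215 with a slide block) and that of miR-23 one of -0.08 to 0.83 (adjusted p = 0.535, or 0.367 with a slide block), so no shift passed after adjustment. These rows were added to the fit after the values had been seen. From 4wd to 2wr the miR-27 difference was lower by 0.35 (log2 difference -0.35, 95% interval -1.07 to 0.38), with both 2wr arrays below all 4wd arrays, as was the case for 9.33% of single miRNAs, and the miR-23 difference was 0.0036 higher (95% interval -0.55 to 0.56).

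**Figure D3:**
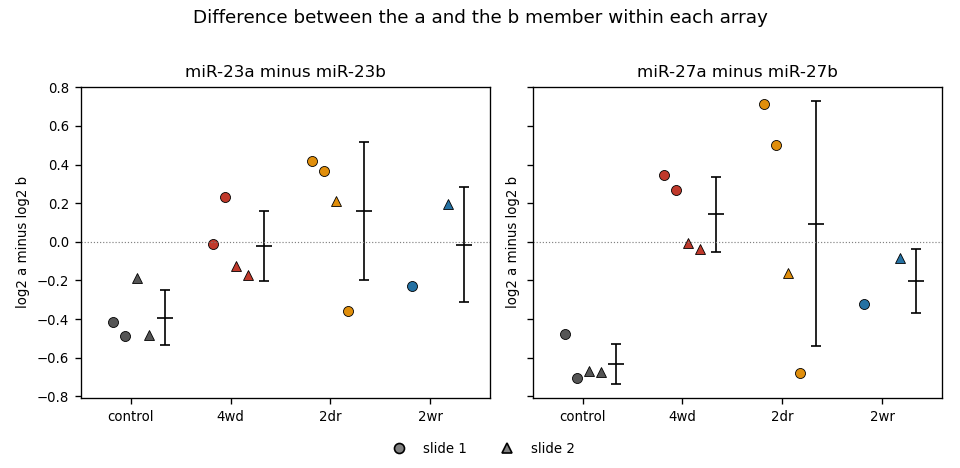
Normalized signal of the a member minus that of the b member on each array (log2, vertical axis) for miR-23 and miR-27 by group, with circles for slide 1, triangles for slide 2 and bars for mean ± SD. In both panels the 4 arrays at 4wd lie above the 4 control arrays, and replicate 4 of 2dr, at -0.36 and -0.68, lies with the controls.

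Each of these members is read by 2 different probes, which gives 4 combinations of a probe of the a member with a probe of the b member. At 4wd the shift from control was above 0 in 4 of 4 combinations for both pairs, from 0.29 to 0.46 for miR-23 and from 0.62 to 1.01 for miR-27, but groups did not overlap in only 1 of 4 combinations for miR-23 and 2 of 4 for miR-27. For miR-27b alone, the brighter probe gave a log2 difference of -0.49 at 4wd with groups apart, and the dimmer probe -0.72 with overlap. The size of the shift thus varied with the probe. The probe combinations were not planned beforehand.

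Marker miRNAs of cell types were set beside these shifts. The oligodendrocyte miRNAs (miR-219, miR-338-3p and miR-338-5p), all 3 of them tested, had a summed signal relative to the 75th percentile of 1.96 to 10.9 on control arrays, 1.44 to 2.63 at 4wd, 1.76 to 6.73 at 2dr and 3.10 to 3.54 at 2wr, and replicate 4 of 2dr had 6.73 where the other 2dr arrays had 1.76 to 3.3. All 3 had a lower mean at 4wd. On the log2 scale miR-219 differed from control by -0.83 (limma adjusted p = 0.601; -1.78 on slide 1, 0.11 on slide 2). The log2 difference of miR-338-3p was -1.17 (limma adjusted p = 0.402), and both overlapped with control. miR-338-5p differed by -2.49 (limma adjusted p = 0.402) with groups apart, as for 2.67% of all miRNAs tested. It was dim, detected on 4 of 4 control arrays and 2 of 4 at 4wd, with total signals of 10.1 to 28.1 and -2.7 to 5.1. The myeloid miRNAs (miR-142-3p, miR-142-5p, miR-155 and miR-223, 3 of 4 tested) summed to 0.0255 to 0.0581 on control arrays, 0.0645 to 0.0941 at 4wd, 0.0745 to 0.437 at 2dr, where replicate 4 was the lowest and replicate 2 stood highest, and 0.0489 to 0.199 at 2wr. They did not move as one at 4wd: miR-155 was called (limma adjusted p = 0.0385) although detected on 0 of 4 control arrays and 1 of 4 at 4wd, miR-142-3p was at 1.69 (limma adjusted p = 0.428), miR-142-5p was detected on no array of either group, and miR-223 was at -0.91 (limma adjusted p = 0.553), detected on 4 of 4 control arrays and 0 of 4 at 4wd. The sums of vessel miRNAs (miR-126-3p, miR-126-5p, miR-143 and miR-145) lay at 0.790 to 1.26 in control and 0.723 to 1.11 at 4wd, and those of red blood cell and neuronal miRNAs overlapped as well, with 0.465 to 0.986 against 0.363 to 0.602 and 23.96 to 31.0 against 16.8 to 41.5. Of the single neuronal miRNAs, miR-129-3p lay above control on all 4wd arrays (log2 difference 0.34, limma adjusted p = 0.553), as for 6.22% of all miRNAs tested. The other neuronal miRNAs overlapped with control. Replicate 4 of 2dr was also the highest 2dr array for vessel miRNAs, at 1.09 (the others 0.686 to 1.0). The same held for red blood cell miRNAs, at 0.77 (the others 0.463 to 0.759), while for neuronal miRNAs it lay within the others, at 21.5 (20.1 to 30.1). Control replicate 3 had the lowest oligodendrocyte sum of the controls, 1.96. Its miR-27 difference of -0.67 lay within the range of the other controls, and its miR-23 difference of -0.19 was the highest of the controls. The part of such cells in the shift between the clusters was not tested.

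Over all 14 arrays, miR-23a and miR-27a had a Pearson r of 0.937 (Spearman rho 0.925), with a permutation p of 1e-05, the smallest that 100000 resamples can give, and 0.0001 adjusted over the 10 pairs of members. Without the 2 arrays farthest from the median of miR-23a, r was 0.958, and it was 0.926 within slide 1 and 0.923 within slide 2. miR-23b and miR-27b had r = 0.671 (rho 0.525, permutation p = 0.00937 and 0.0565, adjusted 0.0234 and 0.0978). Without the 2 arrays farthest from the median of miR-23b, r was 0.462, so that this relation rests in part on those arrays. Within slides r was 0.924 on slide 1 and 0.785 on slide 2.

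For members of different clusters, miR-23a and miR-23b had r = 0.503 (rho 0.521, permutation p = 0.0679 and 0.0587, adjusted 0.113 and 0.0978), and -0.249 within slide 1 against 0.270 within slide 2. For miR-27a and miR-27b r was -0.06 (rho -0.06, permutation p = 0.836 and 0.832, adjusted 0.873 and 0.832), with -0.443 and 0.345 within slides. miR-24 went with miR-23a (r = 0.842, rho 0.855, permutation p = 0.00022 and 0.0002, adjusted 0.0011 and 0.001) and with miR-27a (r = 0.694, rho 0.732, permutation p = 0.00686 and 0.00415, adjusted 0.0229 and 0.0138). Its r was 0.599 with miR-23b (rho 0.604, permutation p = 0.0233 and 0.0245, adjusted 0.0465 and 0.0612) and 0.163 with miR-27b (rho 0.139, permutation p = 0.577 and 0.638, adjusted 0.721 and 0.709). Points on an array share its RNA and its scaling, and r moved with the scaling: over all mouse miRNAs as the base of the 75th percentile it was 0.808 for miR-23a and miR-23b and 0.467 for miR-27a and miR-27b, and after normexp background correction it was 0.470 for miR-23a and miR-27a.

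**Figure D4:**
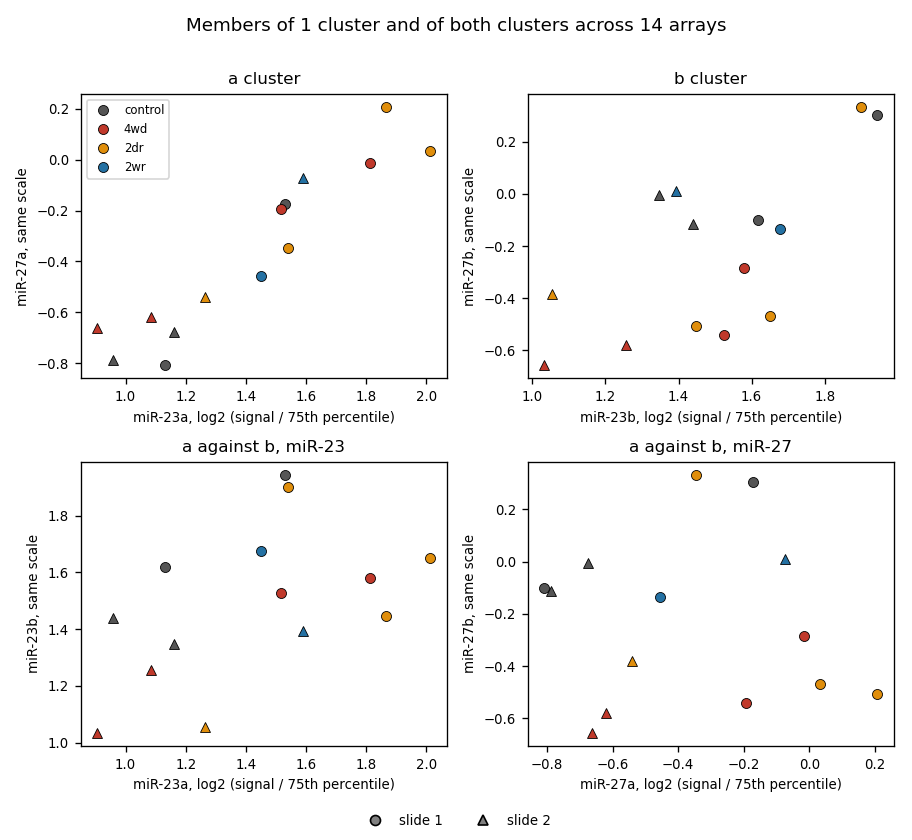
Normalized signal (log2, both axes) of pairs of members over the 14 arrays, the 2 members of each cluster in the upper panels and the a against the b member in the lower panels, coloured by group, with circles for slide 1 and triangles for slide 2. The points of miR-23a and miR-27a follow a line (r = 0.937), those of miR-27a and miR-27b do not (r = -0.06).

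The a minus b differences do not carry the scaling. Over the 14 arrays the difference of miR-23 and that of miR-27 had r = 0.865 (rho 0.886, permutation p = 0.00011 and 2e-05). Without the 2 arrays farthest from the median of the miR-23 difference r was 0.768, and it was 0.961 within slide 1 and 0.618 within slide 2. With the group means taken off each array, r was 0.815, so arrays of a group that leaned to the a member of miR-23 leaned to the a member of miR-27 as well. This relation was computed after the values had been seen.

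The star strands, cut from the other arm of the hairpins, come from a single cluster each. Those of miR-24 are shown because, unlike mature miR-24, they tell its 2 genes apart, again with the seed in capitals and from RefSeq (GRCm38.p6).
miR-24-1*: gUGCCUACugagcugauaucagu
miR-24-2*: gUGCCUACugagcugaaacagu
They share the seed and are 23 and 22 bases long. Compared base by base without a gap, they differ at 5 of the first 22 positions, all from base 17 on. Because of the difference in length, this count overstates how far they differ. Of miR-24-1*, miR-24-2*, miR-27a* and miR-27b*, none was detected often enough to be tested. miR-24-1*, of the b cluster, passed detection on 3 of 4 arrays in control, on 0 of 4 for 4wd, on 3 of 4 for 2dr and on 1 of 2 for 2wr, with total signals of 4.7 to 20.6 in control and 2.0 to 4.1 at 4wd. miR-24-2*, of the a cluster, did so on 2 of 4, 0 of 4, 1 of 4 and 1 of 2 arrays, in that order, with total signals of up to 19.97 in control and 6.0 at 4wd. Both were thus detected on no 4wd array, where signals also were dimmer in general, the 75th percentile being 217 to 344 at 4wd against 379 to 849 in control. miR-27a* and miR-27b* were detected on 0 of 14 arrays and lay at the floor of -9.15 on all of them. miR-23a* and miR-23b* were not analysed here.

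The miRNAs most like each member across the 14 arrays, among 220 other miRNAs tested, differed between the clusters. They were miR-99a (r = 0.86), let-7i (0.83) and miR-15b (0.805) for miR-23a, and miR-99a (0.795), miR-146a (0.774) and miR-21 (0.741) for miR-27a. They were miR-151-5p (0.894), miR-100 (0.854) and miR-365 (0.833) for miR-23b, and miR-532-5p (0.862), miR-100 (0.855) and miR-181b (0.842) for miR-27b. For miR-24 they were miR-22 (0.861), let-7i (0.784) and miR-652 (0.753). miR-99a was thus near both members of the a cluster and miR-100 near both of the b cluster. These values are the highest of many and describe the arrays only, which share their RNA and scaling between miRNAs.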

How the data were processed

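The deposited scanner files hold, per the file headers, background-subtracted signal intensity of each spot and a total signal intensity of each miRNA on a linear scale, made by the authors with Agilent Feature Extraction 10.5.1.1. The authors' deposited log2 table of the same arrays served only as an alternative. It lay within 0.01 of the log2 total signal, with values under 1 set to 1, less a constant per array for at least 559 of 560 matched miRNAs on 13 arrays and for 368 on replicate 1 of 4wd, with column medians from -5.73 to -3.44. The miRNAs behind that constant are not stated in the sources used here.

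Each total signal was scaled by its array's 75th percentile over the 170 miRNAs that every array detected, raised to a floor of 0.00176 (log2 -9.15) where lower, and put on the log2 scale. miRNAs with detection on all arrays of 1 or more groups were tested (225 of 566), with limma 3.58.1 in R 4.3.3 (4 groups, no covariates) and Benjamini-Hochberg adjustment. limma's fit was tested on simulated data. Exact permutation tests and correlations used Python 3.11.15, scipy 1.17.1 for the check of the exact test, and matplotlib 3.10.9 for figures. The number of arrays limits the precision.

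Members, marker lists and tests were chosen with earlier results of these data known. Named miRNAs are the members, their star strands, marker lists, miRNAs with a member's seed letters, and for each member the 3 tested miRNAs with the highest r. Replicate numbers were those of the sample titles, which for 2wr differ from another label. Same-numbered arrays of different groups correlated above 0.1 in 13 of 18 pairs (lowest -0.614). No share is given for differently numbered arrays, and most same-numbered arrays also shared a slide, so these correlations do not settle whether numbers pair arrays. The numbers were used only as a block among the alternatives, which overlaps in part with the slide block. No arrays of a group were closer than a median log2 difference of 0.294. Alternatives were the mean of the spots, normexp background correction (offset 50, on the spots' median signal), the percentile over all mouse miRNAs, quantile normalization, other filters, slide or replicate number as a block, only the groups compared, the methods' test, and each array left out. The array's design build (mm9) differs from GRCm38.p6, so no coordinates are given.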

Additional observations from a re-analysis of the deposited data

Results flagged for a closer look

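Of 21 sets of 4 arrays (5 members and 2 differences in control, 4wd and 2dr), 2 held an array far from the other 3, where chance gives about 1 in 20. For miR-27b at 2dr, the gap of replicate 4 (0.33, against -0.51 to -0.38) was 0.853 of the range of the group. For miR-27a minus miR-27b in control, the gap of replicate 1 (-0.48, against -0.71 to -0.67) was 0.842 of the range. Both exceed the 95% critical value of Dixon's test for 4 arrays.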

How the results depend on the processing

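No member was called under any of the alternatives run, and the overall test stayed above the threshold for all 5. The background differed between alternatives. With normexp background correction 73 of the 225 miRNAs tested were called at 4wd, and no member was among them. Small differences changed sign. Under normexp background correction, where the median log2 difference of all miRNAs at 4wd was 0.80, miR-23a and miR-24 differed from control at 4wd by -0.24 and -0.35. With the percentile over all mouse miRNAs, miR-23b was at 0.21 at 2dr and 0.12 at 2wr, and miR-27b at 0.0057 and 0.092. The same scaling raised the differences at 2dr to 0.76 for miR-23a and 0.48 for miR-24. For miR-27a at 2dr the highest value over the alternatives was 0.73. Quantile normalization gave 0.014 and 0.087 for miR-23b at 2dr and 2wr. The authors' values gave 0.19 and 0.091 for miR-23b, and 0.060 for miR-27b at 2wr. The replicate block turned miR-24 at 2wr to -0.042 and, for 2wr against 4wd, miR-23a to -0.056, miR-24 to -0.14 and miR-27a to -0.12. This block uses the numbers in the sample titles, and for 2wr other labels give numbers that no other group shares. The cause was not tested.

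Without 1 array, log2 differences ranged from -0.026 to 0.28 for miR-23a and -0.067 to 0.21 for miR-24 at 4wd, -0.20 to 0.078 for miR-23b at 2dr, -0.19 to 0.089 for miR-23b and -0.16 to 0.012 for miR-27b at 2wr, and, for 2wr against 4wd, -0.074 to 0.20 for miR-24 and -0.084 to 0.30 for miR-27a. Values that kept their sign but moved over 1.5 times were those of miR-27a at 4wd (0.12 without 4wd replicate 2, 0.38 without control replicate 1) and at 2wr (0.15 without 2wr replicate 2, 0.54 without 2wr replicate 1), miR-23b at 4wd (-0.12 without control replicate 1), miR-24 at 2dr (0.089 without control replicate 4, 0.33 without 2dr replicate 3) and at 2wr (0.020 without control replicate 4, 0.23 without 2wr replicate 2), miR-27b at 2dr (-0.47 without 2dr replicate 4, -0.18 without control replicate 1), the miR-23 shift at 2wr (0.17 without 2wr replicate 2, 0.59 without 2wr replicate 1), the miR-27 shift from 4wd to 2wr (-0.23 without 2wr replicate 1) and, for 2wr against 4wd, miR-23a (0.049 without 4wd replicate 3, 0.35 without 4wd replicate 2) and miR-23b (0.046 without 2wr replicate 1, 0.33 without 2wr replicate 2).

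The shift of miR-23a minus miR-23b at 4wd was 0.38 from spot means and 0.36 under normexp (exact permutation p = 0.0571 each), 0.37 as a row of the limma fit, with and without slide as a block, 0.29, 0.37 and 0.46 with 3 of the 4 probe combinations, and 0.29 to 0.44 without 1 array. With the last of these probes it was 0.80 at 2dr (exact permutation p = 0.0286). From 4wd to 2wr it turned to -0.037 from spot means, -0.036 under normexp, and -0.063, -0.0012 and -0.0003 with 3 probe combinations, and ranged from -0.21 to 0.21 without 1 array. The shift of miR-27a minus miR-27b at 4wd was 0.77 in both limma fits, 0.85 and 1.01 with 2 probe combinations, and 0.71 to 0.83 without 1 array. Leaving out an array leaves 3 against 4, for which no exact p is under the threshold.

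miRNAs called at 4wd were 0 from spot means, quantile normalization, a fit with no filter, one of miRNAs every array detected, and the methods' test, 73 with normexp, and 0 to 1 without 1 array. At 2dr they were 0 with normexp and the methods' test, 1 with no filter or with only miRNAs every array detected, and 1 to 2 without 1 array. At 2wr they were 1 with slide as a block, the percentile over all mouse miRNAs and also the authors' values, and 0 to 1 without 1 array. Across the 4 groups they were 0 with normexp, no filter, only miRNAs every array detected and the methods' test, 2 with the replicate block, and 0 to 1 without 1 array.

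Correlations also moved. Under normexp r was 0.73 for miR-23a and miR-23b, 0.47 for miR-23a and miR-27a, -0.042 for miR-23a and miR-27b, -0.012 for miR-23b and miR-27a, 0.33 for miR-23b and miR-27b and 0.19 for miR-24 and miR-27a. With the percentile over all mouse miRNAs it was 0.81 for miR-23a and miR-23b, 0.56 for miR-23a and miR-27b, 0.73 for miR-23b and miR-27a, 0.63 for miR-24 and miR-27b and 0.47 for miR-27a and miR-27b. Quantile normalization gave 0.57 for miR-23a and miR-24, 0.48 for miR-23b and miR-24, 0.64 for miR-23b and miR-27b, 0.49 for miR-24 and miR-27a and 0.10 for miR-27a and miR-27b. The authors' values gave 0.80 for miR-23a and miR-23b, 0.71 for miR-23b and miR-27a, 0.61 for miR-24 and miR-27b and 0.44 for miR-27a and miR-27b. The correlation of the miR-23 and miR-27 differences lay between 0.778 and 0.866 under the 5 alternatives.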
